A study of Mus musculus with 6 samples.

Results

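Isg15, Ubd, Mx1, Ifi44 and Ifi27l2a are 5 genes of the interferon response, of which Isg15 and Ubd encode ubiquitin-like modifiers. They were picked by symbol from a deposited table of 3542 genes, and all 5 had a row. Their values in these libraries were known when they were picked, so the difference between the genotypes is described here without a test. The data are 3 mRNA-seq libraries of liver from Mul1(+/+) mice and 3 from Mul1(-/-) mice. Mul1(+/+) mice are the wild type, and Mul1(-/-) mice lack Mul1 in the whole body, so that hepatocytes and every other liver cell carry the deletion. Both groups began a high-fat diet (HFD) at 8 weeks of age and were kept on it for 16 weeks, and mice on regular chow were not analysed here. The study used males and females, and the labels give neither the sex nor the strain of the sequenced animals. The labels call the cells hepatocytes, but the tissue described is whole liver.

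Interferons are secreted when a cell senses foreign or misplaced nucleic acid. They bind receptors that signal through JAK kinases and STAT factors, and the STAT complexes switch on a large set of interferon-stimulated genes, many of them through a promoter element called the interferon-stimulated response element. ISG15 is joined to other proteins by a ligase cascade that resembles that of ubiquitin, and it is also released from cells. FAT10, the product of Ubd, carries a pair of ubiquitin-like domains, sends its targets to the proteasome, and is induced by interferon gamma together with TNF. Mx1 is a dynamin-like GTPase that blocks influenza virus, Ifi44 is a cytoplasmic antiviral protein, and Ifi27l2a belongs to a family of small hydrophobic interferon-induced proteins. MUL1 itself is a ligase of the outer mitochondrial membrane, where the signalling adaptor MAVS also sits.

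Values are normalized read counts, meaning reads per gene divided by a scaling factor for each library. The value of 1 read was between 0.817 and 1.46 normalized counts, and between 11932163 and 15385822 reads fell on the genes of the table in each library. Every gene of the table had been selected by the authors for a difference between these same 6 libraries. In limma, the test used here, 3416 of the 3542 genes had an unadjusted p under 0.05. A list gene at such a p is therefore like most genes of the table. Of the table's genes, 2012 (56.8%) were higher and 1530 (43.2%) were lower in Mul1(-/-) HFD-liver. The targeted gene Mul1 had 3172, 3232 and 3423 normalized counts in the Mul1(+/+) libraries and 1037, 965 and 1753 in the Mul1(-/-) libraries, and the groups did not overlap. Which part of the gene is deleted is not given in the sources used here. Of 14 hepatocyte markers, 3 were in the table, and Apob, the apolipoprotein of very-low-density lipoprotein, had between 73380 and 194859 normalized counts in every library. The labels give 3 per group and do not state that each library is a separate animal, and p-values measure only the spread between these libraries.

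All 5 genes had higher normalized counts in every Mul1(-/-) library than in any Mul1(+/+) library. In the whole table the groups were separated in that direction for 49.3% of genes, in the opposite direction for 41.0% and in either direction for 90.3%, so the separation alone does not set the 5 genes apart from the other genes of the table. Their log2 differences, Mul1(-/-) minus Mul1(+/+) on the log2(normalized count + 1) scale, ran from 1.14 for Ifi44 to 5.28 for Ubd with a median of 2.22, beside a median of 1.67 over the 2012 higher genes. By the size of the difference among those 2012 genes, Ubd was at rank 5, Ifi27l2a at 84, Mx1 at 523, Isg15 at 899 and Ifi44 at 1742. The series therefore runs from a gene near the top of the table to a gene near its lower limit. In bulk liver, a change in the number of cells of a type and a change in RNA per cell cannot be told apart.

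**Figure D1:**
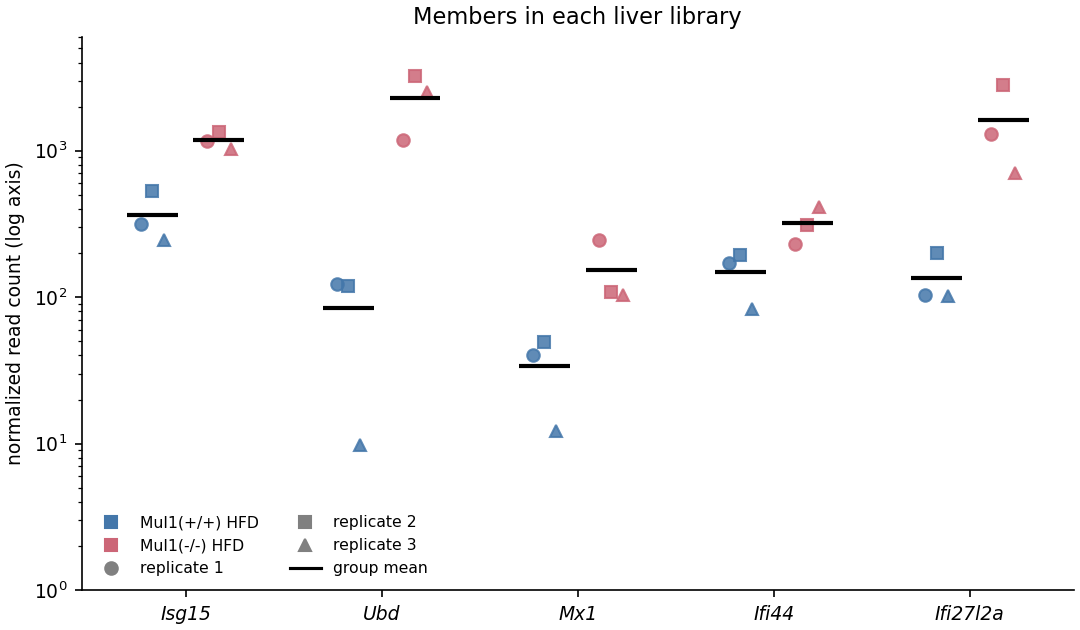
Normalized read counts (log axis) of the 5 genes in the 3 Mul1(+/+) and 3 Mul1(-/-) HFD-liver libraries, with marker shape giving the replicate and a bar at each group mean. For every gene the Mul1(-/-) points lie above the Mul1(+/+) points; Ubd has the widest gap, and its lowest point, at 9.80, is Mul1(+/+) replicate 3.

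Ubd (ENSMUSG00000035186) lies at chr17:37193892-37196095 on the plus strand of GRCm38, with 2 exons and a transcript of 931 nt in GENCODE M21. The Mul1(+/+) libraries, in the order of their replicate number as below, held 123, 119.6 and 9.80 normalized counts of it, and the Mul1(-/-) libraries held 1175, 3236 and 2502. The lowest Mul1(-/-) library was 9.55 times the highest Mul1(+/+) library, the widest separation among the 5 genes. The means were 84.1 ± 64.4 and 2304 ± 1045 (SD, n = 3), a 27.4-fold ratio. Mul1(+/+) replicate 3 rested on 12 reads (95% exact Poisson interval 6.2 to 20.96 reads, counting error only), against 146 and 135 reads in replicates 1 and 2. Ubd thus also varied most within the wild-type group, where its highest value was 12.6 times its lowest. Without Mul1(+/+) replicate 3 the log2 difference was 4.12 in place of 5.28.

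The 250 bases before the Ubd start were read from the RefSeq promoter table because FAT10 answers to TNF as well as to interferon, and 3 motifs were searched on both strands: GAAA followed by GAAA with 2 bases of any kind between, the core of the interferon-stimulated response element; TTC followed by GAA with 3 bases between, the core of the gamma-activated sequence; and the NF-kB consensus. Capitals mark the only match, an NF-kB consensus from 15 to 6 bases before the start, in chr17:37193642-37193891 of GRCm38.p6, plus strand.
Ubd promoter: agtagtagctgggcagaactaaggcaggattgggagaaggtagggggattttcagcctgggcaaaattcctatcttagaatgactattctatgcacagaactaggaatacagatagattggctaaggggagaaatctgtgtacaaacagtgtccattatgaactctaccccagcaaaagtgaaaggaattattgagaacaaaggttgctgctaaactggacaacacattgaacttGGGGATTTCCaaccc
The NF-kB consensus was found in 7.25% of the 32851 promoter windows of the same length and in 9.58% of the 2442 table genes with a window. A match is a run of letters and not a shown binding site.

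Ifi27l2a (ENSMUSG00000079017) lies at chr12:103442167-103443680 on the minus strand, with 4 exons and the shortest transcript of the 5 genes, 463 nt. It had 103, 201 and 102 normalized counts in the Mul1(+/+) libraries and 1305, 2822 and 705 in the Mul1(-/-) libraries. The highest wild-type library was 1.97 times the lowest, and the Mul1(-/-) libraries were spread over 4.0 times, the widest range of the 5 genes in that group. Means of 135 ± 56.9 and 1611 ± 1091 (SD, n = 3) gave an 11.9-fold ratio and a log2 difference of 3.41. The related genes Ifi27 and Ifi27l2b lie 1.93 and 7.22 kb away and were not in the table. How the authors' counting divided reads among the 3 related genes is not given in the sources used here, so the value of Ifi27l2a is uncertain to that extent.

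Mx1 (ENSMUSG00000000386) lies at chr16:97447035-97462907 on the minus strand, with 15 exons and 3385 nt in its longest coding transcript. It is annotated as protein-coding in GENCODE M21 and as a transcribed pseudogene in RefSeq, and many laboratory mouse strains are known to carry a defective Mx1 allele. Its normalized counts were 40.5, 49.6 and 12.2 in the Mul1(+/+) libraries and 247, 109 and 103 in the Mul1(-/-) libraries. Mul1(-/-) replicate 1 stood above the other Mul1(-/-) libraries, and Mul1(+/+) replicate 3, with 15 reads, stood below the other wild-type libraries. The means were 34.1 ± 19.5 and 153 ± 81.5 (SD, n = 3), a 4.48-fold ratio and a log2 difference of 2.22, or 1.63 without Mul1(+/+) replicate 3. The neighbouring Mx2, 72.4 kb away, was not in the table.

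Isg15 (ENSMUSG00000035692) lies at chr4:156199424-156200818 on the minus strand, with 2 exons and 756 nt. It had 316, 532 and 246 normalized counts in the Mul1(+/+) libraries and 1166, 1337 and 1031 in the Mul1(-/-) libraries. Of the 5 genes it was the most even among Mul1(-/-) libraries, whose highest value was 1.297 times the lowest and whose coefficient of variation was 13.03%. The means were 365 ± 149 and 1178 ± 154 (SD, n = 3), a 3.23-fold ratio and a log2 difference of 1.76. Isg15 and Mul1 are on the same chromosome, 17.8 Mb apart. Of the 114 table genes within 20 Mb of Mul1, 46.5% were higher in Mul1(-/-) HFD-liver, beside 56.8% of the 3531 table genes matched to the annotation. The part of linkage to the deleted gene in the Isg15 difference was not tested.

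The Isg15 promoter window is shown because it holds the response element that names the gene class. In chr4:156200819-156201068 of GRCm38.p6, minus strand, the response element core matched at 78 to 69, 72 to 63 and 66 to 57 bases before the start, and capitals mark these 3 overlapping matches.
Isg15 promoter: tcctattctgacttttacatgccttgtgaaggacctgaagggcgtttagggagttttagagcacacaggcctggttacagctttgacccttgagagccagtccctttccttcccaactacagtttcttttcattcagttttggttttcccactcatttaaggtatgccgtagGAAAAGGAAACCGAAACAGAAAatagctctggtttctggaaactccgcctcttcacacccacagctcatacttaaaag
The element was present in 2.98% of the 32851 windows. Neither the gamma-activated sequence core, found in 7.02% of windows, nor the NF-kB consensus matched in the Isg15 window.

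The ends of the Isg15 and Ubd coding sequences show how the modifiers differ as proteins. ISG15 is made as a precursor that must be trimmed to expose a glycine pair before it can be joined to a target. FAT10 is known to end in a free glycine pair. The last 16 codons, stop included, were taken from the GENCODE M21 transcripts, and capitals mark runs of neighbouring glycine codons.
Isg15 coding end: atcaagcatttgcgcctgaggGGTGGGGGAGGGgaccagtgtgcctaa
Ubd coding end: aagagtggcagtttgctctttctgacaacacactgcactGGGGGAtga
In Isg15, 4 codons stand between the last codon in capitals and the stop, and in Ubd there are 0. The capitals mark glycine codons only and do not show where the ISG15 precursor is trimmed. The 161 codons of Isg15 and the 162 codons of Ubd before the stop make proteins of nearly equal length.

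Ifi44 (ENSMUSG00000028037) lies at chr3:151730922-151749960 on the minus strand, with 8 exons and 2910 nt in its longest coding transcript. Its normalized counts were 170.3, 195 and 83.3 in the Mul1(+/+) libraries and 229, 314 and 414 in the Mul1(-/-) libraries. The groups were separated by little, the lowest Mul1(-/-) library being 1.18 times the highest wild-type library. Means of 149.5 ± 58.6 and 319 ± 92.3 (SD, n = 3) gave a 2.13-fold ratio and a log2 difference of 1.14, close to the smallest difference of any higher gene in the table, 0.915. Without Mul1(+/+) replicate 3 the log2 difference was 0.76. Its neighbour Ifi44l, 8.78 kb away, was not in the table.

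The Ifi44 window, chr3:151749911-151750160 of GRCm38.p6, minus strand, is shown for contrast with Isg15. It held none of the 3 motifs. A form of the response element core with 3 bases between GAAA and GAAA was searched after the sequence had been seen, and it matched on the opposite strand from 55 to 45 bases before the start, marked in capitals.
Ifi44 promoter: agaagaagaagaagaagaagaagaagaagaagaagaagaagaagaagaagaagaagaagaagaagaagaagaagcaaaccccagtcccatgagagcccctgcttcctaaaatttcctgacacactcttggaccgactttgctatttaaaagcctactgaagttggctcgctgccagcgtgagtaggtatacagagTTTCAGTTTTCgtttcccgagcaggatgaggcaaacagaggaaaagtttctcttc
That longer form was present in 2.38% of windows. Windows were found for 3 of the 5 genes, and Mx1 and Ifi27l2a are named only.

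By group mean, the order of the 5 genes by level differed between the genotypes, while several of them overlapped between single libraries. Per kb of the longest coding transcript, the Mul1(+/+) means were 482 normalized counts for Isg15, 292 for Ifi27l2a, 90.4 for Ubd, 51.4 for Ifi44 and 10.1 for Mx1. Isg15 (325 to 704 per kb over the libraries) and Ifi27l2a (220.5 to 434) overlapped, as did Ubd (10.5 to 132) and Ifi44 (28.6 to 66.9), while Mx1 stayed below 14.7 per kb. In Mul1(-/-) HFD-liver the per-kb means were 3479 for Ifi27l2a, 2475 for Ubd, 1558 for Isg15, 109.6 for Ifi44 and 45.2 for Mx1. Ifi27l2a (1523 to 6094), Ubd (1262 to 3475) and Isg15 (1364 to 1769) overlapped one another, so their order within the Mul1(-/-) group is not fixed by these libraries. Isg15, Ubd and Ifi27l2a have transcripts under 1000 nt. Of the 309 protein-coding table genes that short, 97.1% were higher in Mul1(-/-) HFD-liver, beside 42.0% of the 2532 longer ones, and the part of transcript length in the differences was not tested. Mx1 and Ifi44 belong to the longer class.

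Ratios between genes of the same library do not depend on how libraries were scaled. Ubd stood at 0.389, 0.225 and 0.0399 of Isg15 in the Mul1(+/+) libraries and at 1.01, 2.42 and 2.43 in the Mul1(-/-) libraries. The lowest Mul1(-/-) ratio was 2.59 times the highest wild-type ratio, and since these are ratios of counts, not corrected for transcript length, they compare libraries and not the levels of the 2 genes. Ifi27l2a went from 0.325, 0.378 and 0.415 of Isg15 to 1.12, 2.11 and 0.684, again without overlap. The ratio of Mx1 to Isg15 overlapped between genotypes, with 0.128, 0.0932 and 0.0498 against 0.212, 0.0815 and 0.0997. For Ifi44 the ratio to Isg15 was 0.539, 0.366 and 0.339 in Mul1(+/+) and 0.197, 0.234 and 0.401 in Mul1(-/-) libraries, which also overlapped. The genotypes were thus separated in the ratios of Ubd and Ifi27l2a to Isg15 and overlapped in those of Mx1 and Ifi44. The share of all table genes whose ratio to Isg15 separates the genotypes was not computed. Whether the separation sets Ubd and Ifi27l2a apart from the other genes of the table is therefore not known.

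**Figure D2:**
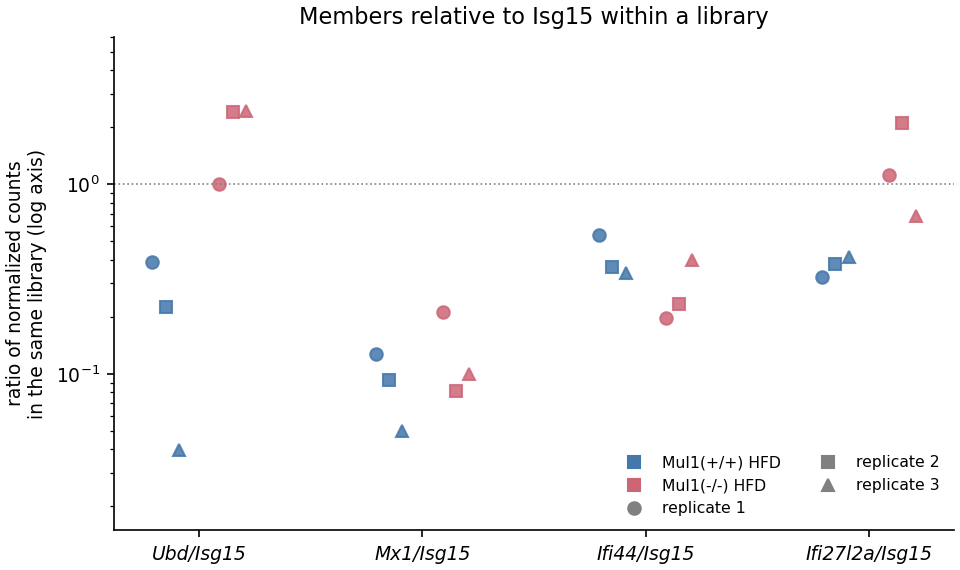
Ratio of the normalized count of Ubd, Mx1, Ifi44 and Ifi27l2a to that of Isg15 in the same library (log axis; dotted line at equal counts), with colour giving the genotype and marker shape the replicate. Ubd and Ifi27l2a ratios are separated by genotype, with the Mul1(-/-) points at 0.684 or above, and the Mx1 and Ifi44 ratios overlap.

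Within a genotype the 5 genes did not all move together. After the group means were removed, Pearson's r over the 6 libraries was highest for Ubd with Ifi44, at 0.92, and lowest for Ifi44 with Ifi27l2a, at 0.06. Isg15 had r between 0.59 and 0.71 with each of the others, and the median over the 10 pairs was 0.59. These are descriptions over points that each share a library and its depth, and 1 library carried much of them: without Mul1(+/+) replicate 3 the median was 0.09. That library was the lowest of its group for Isg15, Ubd, Mx1, Ifi44 and Ifi27l2a. Its deviation from the wild-type mean on the log2 scale was -2.33 for Ubd, -1.19 for Mx1 and -0.75 for Ifi44. It was -0.49 for Isg15 and -0.33 for Ifi27l2a. The median deviation of that library was 0.00 over the whole table and -0.13 over the 2012 higher genes. Among the Mul1(-/-) libraries the order changed from gene to gene. Ubd, Isg15 and Ifi27l2a were highest in replicate 2, Mx1 in replicate 1 and Ifi44 in replicate 3. Over the 2012 higher genes the median deviation was 0.14, 0.37 and -0.56 in Mul1(-/-) replicates 1, 2 and 3. A high value in replicate 2 was therefore not particular to Ubd, Isg15 and Ifi27l2a.

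**Figure D3:**
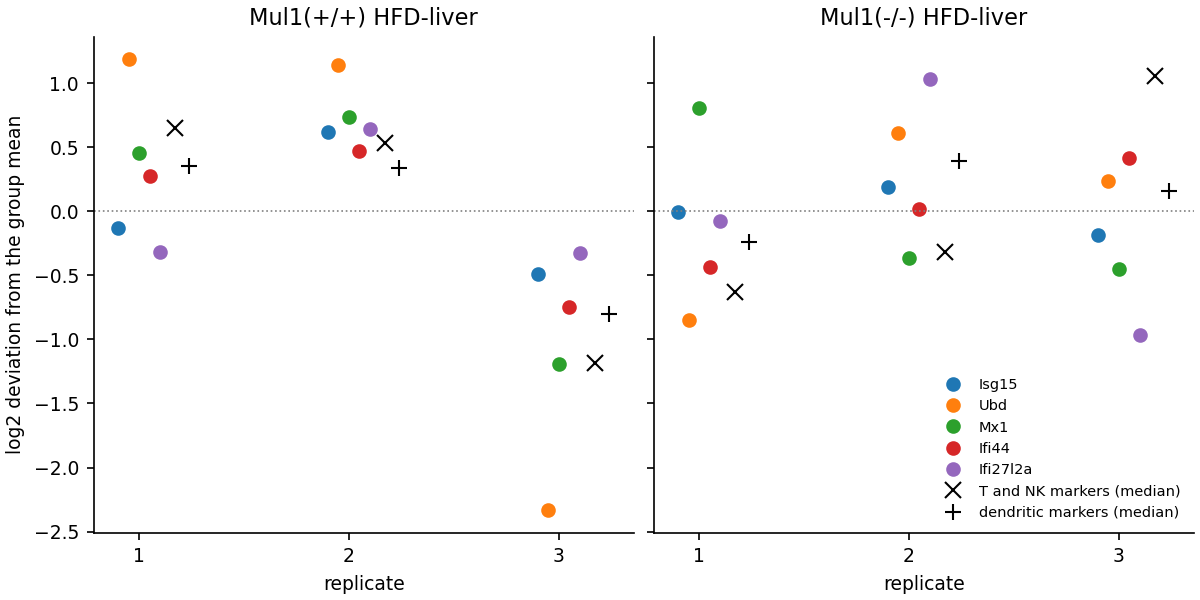
Deviation of each gene from its own group mean (log2) in the 3 replicates of Mul1(+/+) HFD-liver (left) and Mul1(-/-) HFD-liver (right), with crosses and plus signs for the median deviation of T and NK cell markers and of dendritic cell markers. In Mul1(+/+) replicate 3 all points lie below 0, down to -2.33 for Ubd; in Mul1(-/-) libraries the genes separate, with Ifi27l2a from -0.96 to 1.04.

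For each member the 3 most similar genes of the table are given. Likeness was measured by Pearson's r of log2(normalized count + 1) over 6 libraries, which includes the genotype difference, and it is high for many genes of a table chosen on that difference: 1085 of 3533 genes had r above 0.9 with Ifi27l2a, 831 with Isg15, 451 with Ubd, 176 with Mx1 and 115 with Ifi44. Ifi27l2a was closest to Rps23, Rpl39 and Rpl19, which encode proteins of the cytosolic ribosome, with r of 0.9998, 0.9998 and 0.9997. Rps23 had 5531, 8201 and 5310 normalized counts in the Mul1(+/+) libraries and 28078, 45951 and 18277 in the Mul1(-/-) libraries, the same order as Ifi27l2a among the Mul1(-/-) libraries. Isg15 was closest to Rpp21, a subunit of ribonuclease P, to the ribosomal pseudogene Rpl14-ps1, and to Spp2, a secreted liver protein, with r from 0.9965 to 0.9983.

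Ubd was closest to Ncf4, a subunit of the phagocyte oxidase, to the non-coding Lockd and to 1810053B23Rik, with r of 0.9956, 0.9949 and 0.9933. Ncf4 had 89.3, 99.2 and 49.8 normalized counts in Mul1(+/+) and 169.5, 203 and 184 in Mul1(-/-) libraries. Ifi44 was closest to the T and NK cell chemokine Ccl5 (r of 0.9831), to Gm16157 (0.9823) and to Coro1a, an actin-binding protein of white blood cells (0.9751). Ccl5 had 67.4, 54.9 and 13.9 normalized counts in Mul1(+/+) and 101, 164 and 206 in Mul1(-/-) libraries. Mx1 was closest to the stress-response factor Ddit3 (0.988), to Rasa4, a regulator of Ras (0.988), and to Gm10263 (0.9828). Like Mx1, Ddit3 was highest in Mul1(-/-) replicate 1, with 798 normalized counts against 511 and 596 in replicates 2 and 3.

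Markers of immune cells were examined beside the 5 genes. Of 13 dendritic cell markers 5 had a row, each of them higher in Mul1(-/-) HFD-liver, as were 56.8% of all genes of the table. The summed normalized counts of the 5 markers were 111 to 273 in Mul1(+/+) and 1075 to 1501 in Mul1(-/-) libraries. Of the 5, 3 (60.0%) passed, all as higher. Beside this, 24.1% of the whole table passed in either direction and 16.7% passed as higher. In limma's test Ly6d, a surface antigen of plasmacytoid and B cell precursors, rose by a log2 difference of 3.57 (standard error 0.52, adjusted p = 0.00351), Cd209a by 2.62 (adjusted p = 0.00833) and the lectin receptor Clec9a by 2.19 (adjusted p = 0.00701), while Itgax and Batf3 did not pass. These 3 are among 9 genes that passed in all lists other than the interferon-stimulated genes, and no gene of those lists (0) passed without Mul1(+/+) replicate 1, Mul1(+/+) replicate 3 or Mul1(-/-) replicate 2 (33, 38 and 45 at an unadjusted p under 0.05 in limma). Of 16 T and NK cell markers 3 were in the table, with sums of 26.1 to 103 in Mul1(+/+) and 130 to 347 in Mul1(-/-) libraries. Gzmb, Cd8a and Cd3d encode granzyme B, a co-receptor chain and a chain of the T cell receptor complex. Their log2 differences were 1.90, 1.79 and 1.71, all higher, as were 56.8% of all genes of the table. Of the 3 genes 0 passed, beside 24.1% of the whole table. All 3 were at an unadjusted p under 0.05 in limma, as were 3416 of the 3542 genes of the table. In Mul1(+/+) replicate 3 both marker sums were the lowest of their group, as all 5 members were. Among the Mul1(-/-) libraries both sums were lowest in replicate 1, where Ubd and Ifi44 were also lowest and Mx1 was highest. The single markers did not share this order. Ly6d, Cd209a, Cd3d and Gzmb were lowest in replicate 1, Itgax and Cd8a in replicate 2, and Clec9a and Batf3 in replicate 3. Ly6d, with 643, 969 and 929 normalized counts, made up most of the dendritic sum. None of these markers was at 0 in any library, and the part of immune cell number in the members' values was not tested.

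The remaining immune lists gave few rows. Of 16 macrophage markers only Lyz2, which encodes lysozyme, was in the table, with 2191 to 3954 normalized counts in Mul1(+/+) and 3632 to 10277 in Mul1(-/-) libraries and a log2 difference of 1.16 (adjusted p = 0.038, limma). Csf3r, the receptor for granulocyte colony-stimulating factor, was the only one of 12 neutrophil and monocyte markers, at 46.6 to 64.0 against 51.8 to 197. The groups overlapped for both genes. None of 10 B and plasma cell markers was in the table, and markers outside the table were not analysed here.

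Other genes known to be induced by type I and III interferons were taken from a list of 110, of which 21 were in the table. At an adjusted p under 0.01 and an absolute log2 difference above 1 in limma, 5 of the 21 (23.8%) passed, all higher in Mul1(-/-) HFD-liver, beside 24.1% of all 3542 genes, of which 16.7% were higher and 7.43% lower. The share is near that of the table as a whole. The number of calls changed with the library left out, while 15 genes stayed higher and 6 lower and the list's median difference stayed between 1.16 and 1.72: 0 passed without Mul1(+/+) replicate 1, Mul1(+/+) replicate 2 or Mul1(-/-) replicate 2 (16, 18 and 15 at an unadjusted p under 0.05 in limma), 1 passed without Mul1(+/+) replicate 3, 3 without Mul1(-/-) replicate 1 and 15 without Mul1(-/-) replicate 3. Of the 5, 3 are 2'-5'-oligoadenylate synthetases, enzymes that sense double-stranded RNA and activate RNase L. Oas1g had 22.8, 43.4 and 30.2 normalized counts in Mul1(+/+) and 324, 342 and 279 in Mul1(-/-) libraries, with a log2 difference of 3.30 (standard error 0.40, adjusted p = 0.00191). Oas2 rose by 2.63 (adjusted p = 0.00701) and Oas1a by 1.74 (adjusted p = 0.0087), and Oas1 genes are near-identical copies whose reads the counting may have divided. Ifi213, a gene of the family of nuclear DNA sensors, rose by 2.30 (adjusted p = 0.00697), and Phf11d, a PHD finger gene, by 1.74 (adjusted p = 0.0084).

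The 21 genes did not share a direction. Of these, 15 were higher, with log2 differences from 1.0 to 3.30 and a median of 1.74, and 6 were lower, from -1.85 to -0.99 with a median of -1.34. None of the 6, Trim14, Lgals3bp, Znfx1, Pml, Bcl3 and Trim25, passed the test. Each had an unadjusted p under 0.05 in limma, as had 3416 of the 3542 genes of the table. Every Mul1(-/-) library was below every Mul1(+/+) library for each of the 6, as for 41.0% of the table. The higher and lower genes differed in their wild-type level. Mean normalized counts in Mul1(+/+) HFD-liver were 19.8 to 262 for the 15 higher genes (median 49.6) and 835.5 to 4998 for the 6 lower ones (median 1938). Of the 5 members, Isg15, at 365, was above the range of the 15 higher genes and the others, from 34.1 for Mx1 to 149.5 for Ifi44, were within it. Median transcript length was 1977 nt for the higher and 3406 nt for the lower genes, and 1 of the 21, Ccl5, was under 1000 nt. By promoter, 7 of the 16 list genes with a window held the response element core, beside 3.44% of the table genes with a window. They were Ddx60, Ifi203, Ifi205, Ifi213, Mndal, Oas1a and Oas1g. All 7 were higher in Mul1(-/-) HFD-liver, as were 15 of the 21 list genes, which include genes without a window. The directions of the list genes that had a window but no element were not counted. A link between the element and the direction was not tested.

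**Figure D4:**
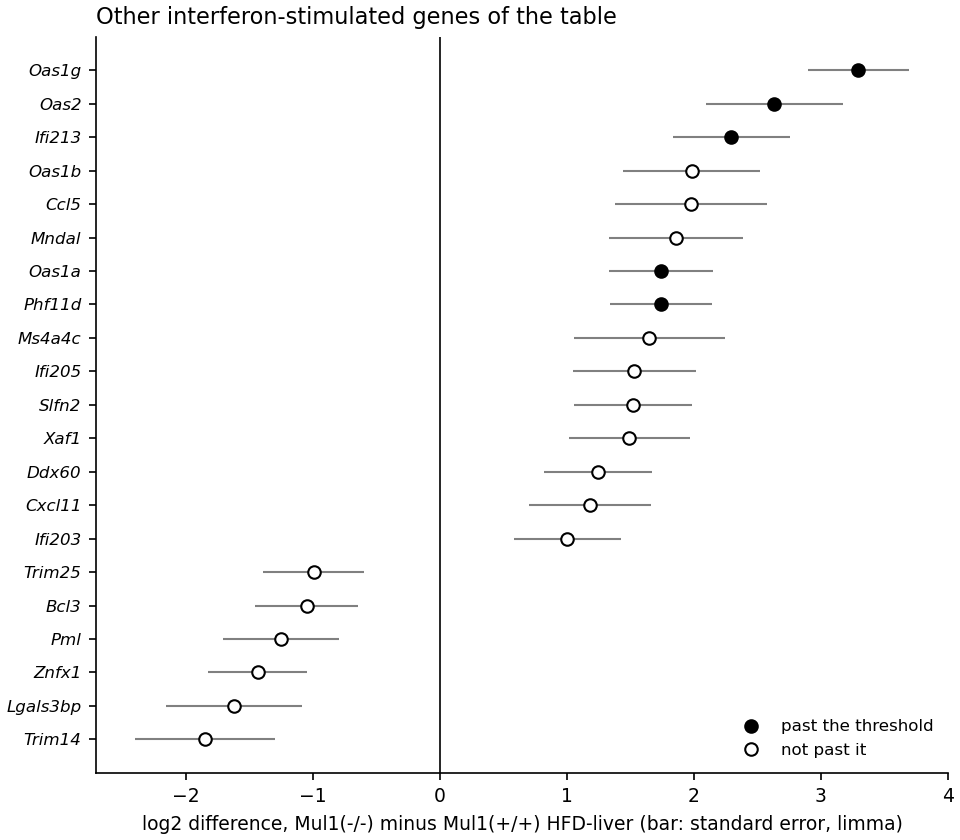
Log2 difference, Mul1(-/-) minus Mul1(+/+) HFD-liver, of the 21 other interferon-stimulated genes of the table, with the standard error from limma as a bar and filled points for the 5 genes past the threshold. The 15 higher genes lie from 1.0 to 3.30 and 6 from -1.85 to -0.99.

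Upstream of the members, none of 21 interferon ligand genes was in the table. Of 26 genes of the interferon receptors and the JAK-STAT pathway 4 were in the table and 0 passed. All 4 were at an unadjusted p under 0.05 in limma, as were 3416 of the 3542 genes of the table. Stat3 and the phosphatases Ptpn1 and Ptpn11, which act on JAK-STAT signalling, had log2 differences of -1.16, -1.26 and -1.40, and Il10rb, a chain of the receptor for interferon lambda, had 0.99. Of 37 genes that sense nucleic acids or relay that signal, 7 were in the table and 0 passed. All 7 were at an unadjusted p under 0.05 in limma, again as were most genes of the table. Mavs, the mitochondrial adaptor of the RNA sensors, had 4939, 3288 and 3868 normalized counts in Mul1(+/+) and 1416, 836 and 1743 in Mul1(-/-) libraries, a log2 difference of -1.64 (adjusted p = 0.011). Nlrx1, a mitochondrial regulator of MAVS, had -1.53, Traf6 and Traf3, ligases that relay the signal, had -1.43 and -1.20, and Trim25 had -0.99. Mb21d1, which encodes the DNA sensor cGAS, had 1.57 and Rnaseh2b, a subunit of an enzyme that removes RNA from DNA, had 1.0. The groups did not overlap for these 7 genes, as for 90.3% of the table.

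Genes for the handling of the modifiers had lower values in Mul1(-/-) HFD-liver where they were in the table, and 0 of the 4 passed the test. Trim25, a target and ligase of ISG15 conjugation, was the only one of 10 genes for adding or removing ISG15, with 4834, 3657 and 6502 normalized counts in Mul1(+/+) and 2138, 2651 and 2574 in Mul1(-/-) libraries (adjusted p = 0.0341). Of 10 genes for FAT10 conjugation and decay 3 were in the table. Ube2z, which encodes the FAT10-conjugating enzyme USE1, had a log2 difference of -1.52, Nub1, which speeds the decay of FAT10, had -1.25, and Vcp, an unfolding ATPase, had -1.27. The 3 genes did not pass limma's test (adjusted p of 0.023, 0.0167 and 0.0156). Each had an unadjusted p under 0.05 in limma, as had 3416 of the 3542 genes of the table. The groups did not overlap for any of the 3, as for 41.0% of the table in that direction. For Ube2z 1 library stood apart, with 845 and 642 normalized counts in Mul1(-/-) replicates 1 and 2 and 2638 in replicate 3, against 3104 to 3363 in Mul1(+/+).

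Ubiquitin and the other ubiquitin-like modifiers were compared with Isg15 and Ubd. Of 33 such genes 6 were in the table and 1 passed (16.7%), beside 24.1% of the whole table. Rps27a, which encodes ubiquitin fused to a ribosomal protein, rose from 4899, 7237 and 5160 normalized counts in Mul1(+/+) to 16282, 22930 and 17263 in Mul1(-/-) libraries, a log2 difference of 1.71 (adjusted p = 0.00833). Fau, a ubiquitin-like protein fused to another ribosomal protein, had 1.5 (adjusted p = 0.0109). The shuttle factors Ubqln1 and Nub1 had -1.26 and -1.25. The log2 difference of Isg15, 1.76, was near that of Rps27a, and that of Ubd, 5.28, was above all 6.

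Interferon gamma and TNF, the known inducers of Ubd, have further target genes in the table. Of 48 interferon gamma-induced GTPases and antigen presentation genes 6 were present and 0 passed. All 6 were at an unadjusted p under 0.05 in limma, as were 3416 of the 3542 genes of the table. Gbp8, Gbp11 and F830016B08Rik had log2 differences of 2.39, 1.68 and 1.20, and Gbp10, Irgm2 and Irgm1 had -2.14, -1.32 and -1.07. Gbp genes are close relatives whose reads may have been divided by the counting, and the groups overlapped for Gbp10 and Gbp11. Of 44 TNF and NF-kB target genes 9 were present, 7 higher and 2 lower. Beside 24.1% of the whole table, 2 of the 9 (22.2%) passed. These were Bcl2a1b, with 21.9, 54.0 and 21.2 normalized counts in Mul1(+/+) and 96.4, 342 and 175 in Mul1(-/-) libraries (log2 difference 2.57, adjusted p = 0.00784), and its near-identical copy Bcl2a1d (2.42, adjusted p = 0.00833). Both belong to a group of survival genes of white blood cells.

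The scaling of the libraries moved the members' values without changing their direction. With the libraries rescaled by the median of the gene-wise ratios, which lowered the median difference of the whole table by 0.66 on the log2 scale, the log2 differences were 4.64 for Ubd, 2.76 for Ifi27l2a, 1.58 for Mx1, 1.10 for Isg15 and 0.48 for Ifi44. Under this scaling 2 of the interferon-stimulated list passed as higher and 1 as lower, in place of 5 and 0. Rescaled by the total over the table's genes, a shift of -0.30, Ifi44 had 0.84 and Isg15 1.46.

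**Figure D5:**
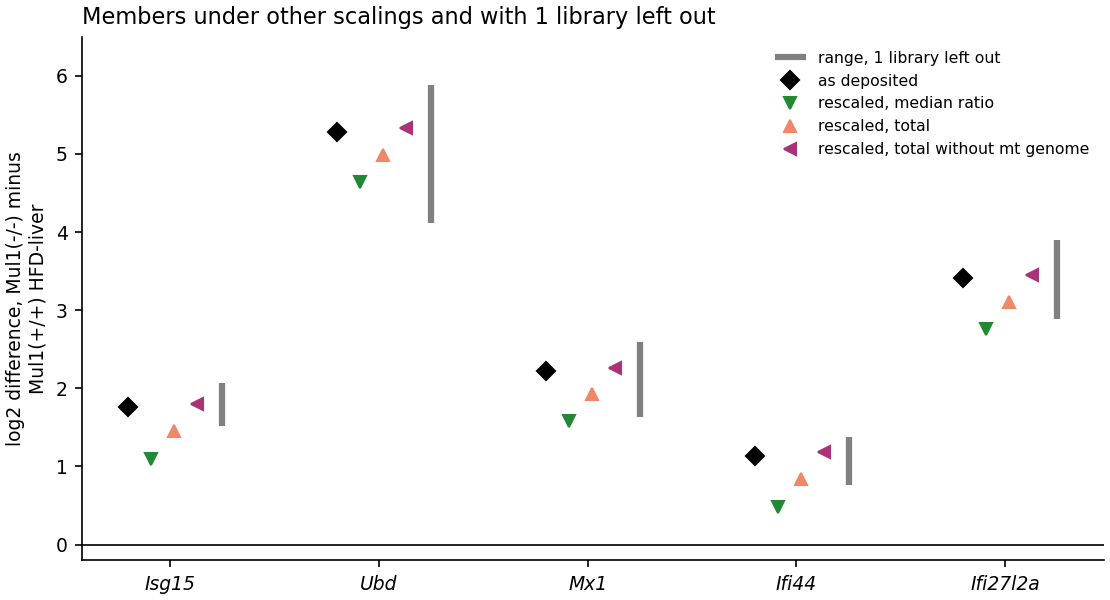
Log2 difference, Mul1(-/-) minus Mul1(+/+) HFD-liver, of the 5 genes with the values as deposited, under 3 rescalings of the libraries, and, as a grey bar, its range when 1 library is left out. All points are above 0; Ifi44 comes closest to it, at 0.48 under the median ratio.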

How the data were processed

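Liver mRNA of Mul1(+/+) and Mul1(-/-) mice on HFD was sequenced, with 3 libraries per genotype. The authors deposited 1 table of selected genes with normalized read counts per library, made by dividing counts by a factor per library. It also holds the authors' log2 fold changes and their p-values and adjusted p-values from the Wald test of DESeq2, which were not used. The aligner, counter, strand setting and genome build are not given in the sources used here. All values under 10000 were whole multiples (100%, tolerance 0.1 read) of the value of 1 read, which gave the read numbers. Library totals were not used here.

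limma 3.58.1 in R 4.3.3 was fitted to log2(value + 1), with the 2 genotypes as groups and no other covariate. Adjusted p-values are Benjamini-Hochberg values taken over all 3542 genes. These genes had been selected by the authors for a difference between the same libraries. The p-values and calls given here are therefore no independent evidence of a difference. Fold changes on this scale understate those of low genes. limma was also run on simulated counts. In these, unlike in the table, most genes had no difference, so that run does not check the calls made here. Python 3.11.15 was used for the rest. Coordinates and lengths are from GENCODE M21 (GRCm38), and promoters from RefSeq (GRCm38.p6). The members and the 18 gene lists were chosen with earlier results of these data known. The genes named are the 5 members, the 3 genes with the highest r to each (mean of at least 10), Mul1, and at most 6 genes per list, those with the largest differences among the genes that passed, or among all where fewer than 2 passed. Some list genes are not reported here. Further list genes named beside their count were chosen after their values were seen. The alternatives were other pseudocounts, scalings, thresholds and priors, a filter, a replicate block, and each library left out.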

Additional observations from a re-analysis of the deposited data

How the results depend on the processing

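The 5 members were higher in Mul1(-/-) HFD-liver under every scaling and pseudocount run and with each library left out, when the log2 difference ranged from 1.51 to 2.07 for Isg15, 4.12 to 5.88 for Ubd, 1.63 to 2.59 for Mx1, 0.76 to 1.37 for Ifi44 and 2.89 to 3.89 for Ifi27l2a. Rescaling by the median ratio took Isg15 to 1.10 and Ifi44 to 0.48. The median r among members ranged from 0.09 to 0.72 with 1 library left out, an alternative chosen after seeing the data. The counts of calls changed as follows. From 854 in the table, 5 in the interferon-stimulated list and 9 in the other lists, they became 1459, 11 and 18 with a pseudocount of 10, 1869, 13 and 26 with limma-trend, and 3380, 20 and 55 at an adjusted p under 0.05. Rescaled by the total, 1343 (619 higher, 724 lower), 5 (3 and 2) and 14 passed, and by the median ratio 1267 (236 and 1031), 3 (2 and 1) and 18 (1 and 17). Without the mitochondrial genome in the total, 709 passed as higher and 171 as lower. With 1 library left out the counts ranged from 10 to 2673, 0 to 15 and 0 to 37: without Mul1(-/-) replicate 2 they were 10, 0 and 0, with 2740, 15 and 45 at an unadjusted p under 0.05 in limma, and without Mul1(-/-) replicate 3 they were 2673, 15 and 37. Without Mul1(+/+) replicate 3, 46, 1 and 0 passed (38 of the other lists at an unadjusted p under 0.05), without Mul1(+/+) replicate 1 25, 0 and 0, without Mul1(+/+) replicate 2 13, 0 and 1, and without Mul1(-/-) replicate 1 631, 3 and 8. The cause of these changes was not tested. With the replicate number as a block 0, 0 and 0 passed, with 3314, 21 and 53 at an unadjusted p under 0.05 in limma. Deviations of same-numbered libraries had r of 0.022, 0.352 and 0.054, and those of differently numbered libraries ran from -0.2 to 0.132. With so few libraries these values cannot decide whether the numbers pair the samples. Among single named genes outside the members, 629 comparisons with an alternative kept side and direction, 110 gained and 86 lost the threshold, and 0 changed sign. edgeR on recovered reads was planned and was not run. Ubd and Mx1 rest on 12 and 15 reads in Mul1(+/+) replicate 3, which limits the precision of their ratios.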

Other observations

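Markers of the other liver cell types give the setting of the 5 genes. Hnf4a, a master regulator of hepatocytes, Tat, which breaks down tyrosine, and Apob were the 3 hepatocyte markers of the table. Their log2 differences were -1.81, -1.17 and -1.05, and 0 passed limma's test. All 3 were at an unadjusted p under 0.05 in limma, as were 3416 of the 3542 genes of the table. Of 13 endothelial markers 4 were in the table, all lower, beside 43.2% of the whole table, and 0 past the threshold. All 4 were at an unadjusted p under 0.05 in limma, again as were most genes of the table. Clec4g, a lectin of sinusoidal endothelium, had -1.18, and the 4 summed to between 5765 and 6300 normalized counts in Mul1(+/+) and between 2179 and 3311 in Mul1(-/-) libraries.

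Of 12 bile duct markers 6 were in the table and 3 passed, beside 24.1% of the whole table, and these 3 lost the threshold, with the same direction, when any Mul1(+/+) library or Mul1(-/-) replicate 2 was left out. Epcam rose by 2.19 (adjusted p = 0.00692) and Spp1, which encodes osteopontin, by 1.66 (adjusted p = 0.00889), while the keratin gene Krt23 had -2.11 (adjusted p = 0.00697). Of 12 stellate cell markers 4 were in the table and 0 passed. At an unadjusted p under 0.05 in limma were 3 of them, beside 3416 of the 3542 genes of the table. Col3a1 and the proteoglycan gene Dcn had 1.62 and 1.55, Lum had 0.97 and Ngfr had -1.79. In these lists, too, no gene of the table was at 0 in any library.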
